A study of Mus musculus with 4 samples.

Results

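The genes described here are the metzincin proteases of the extracellular matrix and cell surface, with their dedicated inhibitors: the matrix metalloproteinases (MMPs), the ADAMs, the ADAMTSs, the ADAMTS-like proteins, the tissue inhibitors of metalloproteinases (TIMPs) and Reck. A row of the expression table was taken as a member where its gene symbol, or any comma-separated part of it, was Mmp, Adam, Adamts, Adamtsl or Timp followed by its number, or was Reck. The rule used names alone and found 85 of the 22802 rows.

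RNA was sequenced from testicular interstitial cells of C57BL/6J mice at postnatal day 10. Every mouse had the genotype mFLE-Cre;CAG-CAT-EGFP, in which cells make EGFP once Cre has acted in them or in their ancestors. The sorted populations were EGFP-positive, laminin-negative cells and EGFP-positive, laminin-positive cells, with 2 libraries of each. By the design text, the laminin-negative population had weak EGFP, whereas the label of every library reads EGFP-positive. The labels name the Cre driver only as mFLE, and do not say in which cells it acts or how many mice were pooled. Nothing in them shows that the libraries of a population came from separate mice, and the spread on which each p-value rests is that between these libraries, which may be technical.

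MMPs, ADAMs and ADAMTSs are zinc-dependent endopeptidases that are made as inactive precursors and become active once a propeptide is removed. MMPs cut collagens, gelatin and other matrix proteins, ADAMs mainly release the outer parts of membrane proteins, and ADAMTSs cut proteoglycans and trim procollagens. TIMPs fill the active site of these enzymes, and each TIMP has its own preferences among them. In the testis interstitium the matrix around peritubular cells and vessels borders directly on the steroid-producing Leydig cells.

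Levels were read as FPKM, by definition fragments divided by transcript length and by the number mapped, so that they can be compared roughly between genes. How the libraries were scaled in practice is not given. Sums of FPKM were 491475 to 548986 per library, and 11794 to 12011 rows reached 1 FPKM. The steps between the lowest values put 1 FPKM of a 2 kb transcript at roughly 52.7 to 56.2 fragments in the 4 libraries. That estimate was read within a fixed range of values, which limits how far the libraries could differ, so it cannot show that their depths are alike. Summed smooth muscle and peritubular myoid markers stood at 205 and 190.1 FPKM in the laminin-negative libraries and 5560 and 5612 in the laminin-positive ones, and all 8 were called higher. The 6 pericyte markers were all called higher too, from 46.0 to 49.6 FPKM up to 309.6 to 315. Leydig markers ran the other way, from 4568 to 4824 FPKM down to 161 to 207, with all 6 lower. Macrophage markers summed to 7.59 and 4.41 FPKM against 34.8 and 31.2 (5 of 5 tested higher, of 8 with a row). Sertoli markers summed to 75.7 and 72.0 FPKM against 163 and 153.5 (6 of 8 tested higher). Germ cell markers summed to 50.1 and 51.4 FPKM against 31.2 and 31.3, with 6 higher and 1 lower of 8 tested, the lower one being Kit, at 38.7 and 37.4 against 2.39 and 1.84. Endothelial markers summed to 169 and 177 FPKM against 14.4 and 14.1, of which Cdh5 gave 165 and 173 against 9.89 and 9.25. Of 3 tested, Cdh5 and Tek were lower and Emcn was higher, at 0.585 and 0.900 FPKM against 1.87 and 2.32. Pecam1, Kdr, Tie1 and Vwf stayed under 1 FPKM in all 4 libraries, with both laminin-positive values above both laminin-negative ones for each. Only rows with 1 FPKM in at least 2 libraries were tested, and 3 macrophage, 3 Sertoli, 2 germ cell and 2 endothelial markers reached it in 1 population only, so that the filter in part fixes those counts. Erythroid markers summed to at most 1.16 FPKM. The part these cell types play in the differences between members was not tested.

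Promoter sequences are shown for 2 pairs of relatives whose members went opposite ways: the inhibitors Timp3 (higher in laminin-positive cells) and Timp1 (lower), and the ADAMTS-like genes Adamtsl2 (higher) and Adamtsl5 (lower). Each is the reference sequence upstream of the transcription start in RefSeq on GRCm38.p6, 5′ to 3′ on the strand of the gene, in lower case. Capitals mark 3 motifs, each searched on both strands and none overlapping another in these stretches. The GC box, GGGCGG, is common near the starts of genes. The TATA box was searched as TATAAA. The other motif, AAGGTCA, is the core of the site of NR5A1, the steroidogenic factor of Leydig cells. Timp3 lies at chr10:86300162-86300371 (+), Timp1 at chrX:20869916-20870165 (+), Adamtsl2 at chr2:27079129-27079378 (+) and Adamtsl5 at chr10:80348449-80348698 (-).
Timp3: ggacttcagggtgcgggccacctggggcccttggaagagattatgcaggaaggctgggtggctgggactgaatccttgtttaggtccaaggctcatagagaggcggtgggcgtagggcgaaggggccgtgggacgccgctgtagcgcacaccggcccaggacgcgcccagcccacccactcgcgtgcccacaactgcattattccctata
Timp1: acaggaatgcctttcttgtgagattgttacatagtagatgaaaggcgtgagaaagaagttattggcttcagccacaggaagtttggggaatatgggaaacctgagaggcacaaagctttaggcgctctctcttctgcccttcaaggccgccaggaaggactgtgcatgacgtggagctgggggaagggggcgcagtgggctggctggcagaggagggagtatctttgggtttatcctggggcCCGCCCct
Adamtsl2: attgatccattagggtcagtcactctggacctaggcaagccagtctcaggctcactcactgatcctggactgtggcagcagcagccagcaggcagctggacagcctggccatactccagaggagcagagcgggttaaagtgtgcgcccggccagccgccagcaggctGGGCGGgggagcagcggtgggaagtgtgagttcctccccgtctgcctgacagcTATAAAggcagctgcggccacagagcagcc
Adamtsl5: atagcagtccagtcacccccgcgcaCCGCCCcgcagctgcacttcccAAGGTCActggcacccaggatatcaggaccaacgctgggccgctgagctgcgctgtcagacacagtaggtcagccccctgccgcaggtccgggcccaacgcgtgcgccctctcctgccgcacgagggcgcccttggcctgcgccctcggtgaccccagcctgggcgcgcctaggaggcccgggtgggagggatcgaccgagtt
The Timp3 stretch holds 210 bases, because GENCODE starts the gene before RefSeq does; the GC box of Timp3, at -15 to -10 from the RefSeq start, lies in the bases left out. Of the 4 windows, that of Adamtsl2 is the one with a TATA box, at -30 to -25, and that of Adamtsl5 the one with the NR5A1 core, at -203 to -197. Among the 32851 RefSeq promoter windows of 250 bases, 32.7% hold a GC box, 12.4% a TATA box and 4.08% the NR5A1 core. Promoters were matched for 24 of the 42 members that entered the test, in 27 windows. A GC box was present in 7 of the 8 windows of members that rose, 5 of the 11 windows of members that fell and 6 of the 8 windows of members that were not called. These counts are of windows, not genes. Adam19 among the members that fell and Mmp23 among those not called entered repeatedly, with alternative windows that held no GC box. A TATA box was present only in Adamts1 and Adamtsl2 among these windows, and the NR5A1 core only in Adamtsl5. The AP-1 site (TGANTCA), known from inducible MMP genes, occurred in Adam19 alone and in 6.75% of all windows. No window of a member held the CArG box of smooth muscle genes, which 1.47% of all windows hold. A match is a string of letters, and nothing here shows that a factor is bound.

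A row entered the test where it reached 1 FPKM in at least 2 libraries, which 42 of the 85 members did. Of the other 43, 20 were listed at 0 in every library and 23 had a value that stayed low. A gene was called where limma's moderated test on log2(FPKM + 1) gave an adjusted p under 0.05 after Benjamini-Hochberg adjustment over all 12348 tested rows. On that scale the fold of a low gene is understated, so ratios of mean FPKM are given beside it. The populations differed widely: 52.9% of all tested rows were called, 26.6% higher and 26.3% lower in laminin-positive cells. Among the 42 tested members 34 were called, with 21 higher in laminin-positive cells and 13 lower. In these bulk samples, fewer cells of a type and less RNA per cell cannot be told apart.

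Calls with a log2 difference of at least 1 numbered 20 among the members, 14 higher and 6 lower, or 47.6% of those tested. The same rule took 13.2% of all tested rows, 7.29% higher and 5.89% lower. The median absolute log2 difference was 0.83 over the tested members and 0.28 over all tested rows, while the signed medians were 0.25 and 0.01. Values of the populations did not overlap for 39 of the 42 members, which was also so for 77.2% of all tested rows. With 2 libraries against 2 this has little weight, since an exact permutation test cannot go below a p of 0.333. Of the 42, 6 reached 1 FPKM in 1 population only: Adam11, Adamts8, Adamts16 and Adamtsl1 in laminin-positive cells, and Adamtsl5 and Adamts19 in laminin-negative cells. Those 6 could enter the test only through the population where they are high. All 6 are among the 20 calls with a log2 difference of at least 1, so the filter in part fixes that count and its share. Of the remaining 36 tested members, 28 were called at any size.

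**Figure D1:**
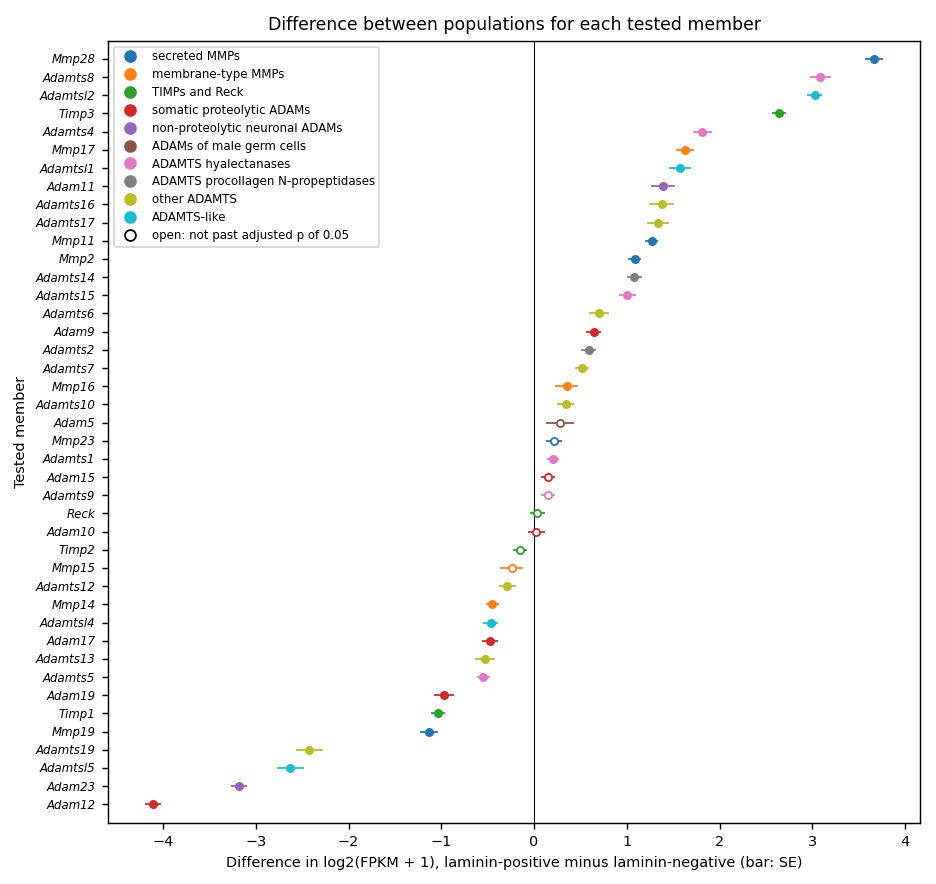
Difference in log2(FPKM + 1), laminin-positive minus laminin-negative, for each of the 42 tested members in order of size, with bars of 1 standard error from the limma fit, colours for the role, filled points past an adjusted p of 0.05 and open points not. Mmp28 stands at the upper end with 3.67 and Adam12 at the lower end with -4.11, and most roles have members on both sides of 0.

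Among the inhibitors, the TIMP genes moved in different directions. Timp3 encodes the TIMP that binds tightly to the matrix and inhibits ADAM17 and the aggrecan-cutting ADAMTSs besides MMPs. It lies at chr10:86300372-86349506 (+) on GRCm38 and was at 38.4 and 36.7 FPKM in the laminin-negative libraries and 227 and 253 in the laminin-positive ones. Both laminin-positive libraries stood far above both laminin-negative ones, a 6.39-fold ratio of the means (log2 difference 2.64, SE 0.08, limma adjusted p = 8.43e-10). Syn3, whose gene contains Timp3 on the opposite strand, was at 0.193 to 0.333 FPKM in all 4 libraries.

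Timp1, a secreted inhibitor that acts poorly on membrane-type MMPs, fell. It lies at chrX:20870166-20874735 (+) and was at 57.3 and 62.7 FPKM in laminin-negative cells and 28.1 and 29.3 in laminin-positive cells, without overlap and 2.09-fold lower (log2 difference -1.04, limma adjusted p = 1.09e-06). Timp2 (chr11:118301069-118355740, -), which inhibits MMPs and also bridges pro-MMP2 to MMP14 for activation, was the most abundant inhibitor in both populations, at 338 and 348 FPKM against 294 and 321. Its groups did not overlap, but the difference did not pass the test (limma adjusted p = 0.11). Reck, a membrane-anchored inhibitor of several MMPs, was at 28.0 and 25.9 FPKM against 27.2 and 28.0; its values overlapped and it was not called (limma adjusted p = 0.742). Timp4 stayed under 1 FPKM, at 0.466 and 0.963 against 0.0635 and 0.0885, and was not tested; it overlaps Syn2 on the opposite strand.

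**Figure D2:**
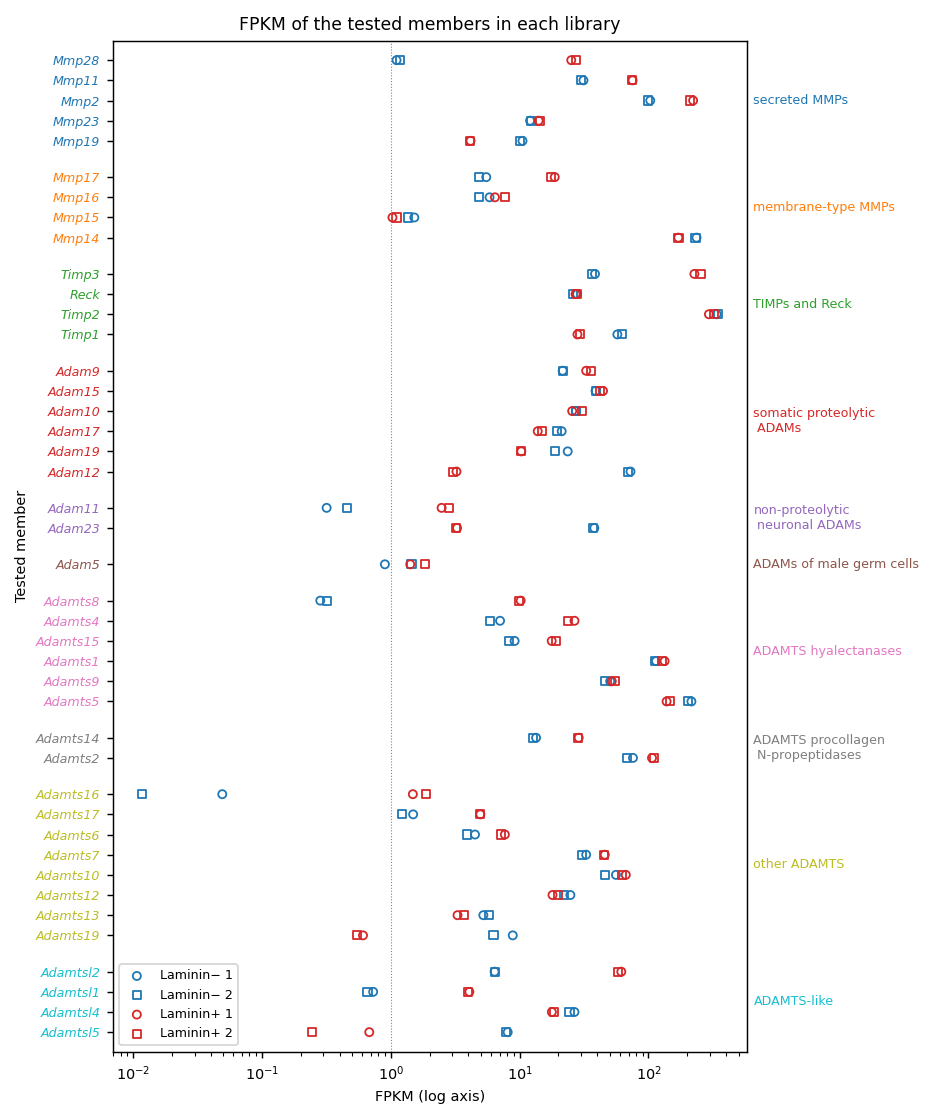
FPKM (log axis) of the 42 tested members in each library, by role; blue marks are laminin-negative and red marks laminin-positive libraries, circles library 1 and squares library 2, and the dotted line is 1 FPKM. Timp2 and Mmp14 are high in both populations, the red marks of Timp3, Mmp28, Adamts8 and Adamtsl2 lie far above the blue ones, and those of Adam12, Adam23, Adamtsl5 and Adamts19 far below.

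Of the 17 secreted MMPs, 5 entered the test: Mmp2, Mmp11 and Mmp28 rose, Mmp19 fell and Mmp23 was not called. Mmp28 encodes epilysin, an MMP with a furin cleavage site that is made in several resting tissues, the testis among them. It lies at chr11:83440768-83463071 (-) and was at 1.11 and 1.17 FPKM in laminin-negative cells and 25.2 and 27.2 in laminin-positive cells. That is the widest upward difference among the members on the log2(FPKM + 1) scale, 23.0-fold without overlap (log2 difference 3.67, SE 0.10, limma adjusted p = 5.36e-10). The gene 1700020L24Rik overlaps exons of Mmp28 on the opposite strand and had almost the same levels, 1.31 and 0.993 FPKM against 24.5 and 27.0. No source used here gives the strand setting of the authors' counting, so reads of the pair cannot be told apart.

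Mmp2 (chr8:92827291-92853420, +), the gelatinase that digests denatured collagen and basement membrane collagen, was the secreted MMP with the highest level. It stood at 103 and 99.5 FPKM in laminin-negative cells and 222 and 211 in laminin-positive cells, 2.14-fold higher without overlap (log2 difference 1.09, limma adjusted p = 3.59e-07). Mmp11, stromelysin-3, is an MMP of connective tissue cells that is activated inside the cell by furin. Its values were 31.3 and 29.9 FPKM against 75.2 and 74.7, 2.45-fold higher (limma adjusted p = 1.22e-07). Both laminin-positive libraries were above both others, but the opposite-strand neighbour Chchd10, which shares exon sequence with it, also went from 84.9 and 81.7 FPKM to 342 and 302.

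Mmp19 (chr10:128790910-128800824, +), an MMP that cuts basement membrane components, was the secreted MMP that fell. Its values were 10.5 and 10.0 FPKM in laminin-negative cells and 4.16 and 4.11 in laminin-positive cells, 2.48-fold lower without overlap (log2 difference -1.13, SE 0.10, limma adjusted p = 3.28e-06). Its locus is shared with Tmem198b, which was at 20.2 and 17.5 FPKM against 11.2 and 13.3. Mmp23, which is made as a membrane protein and released by cleavage, was at 12.1 and 12.2 FPKM against 14.0 and 14.5 and was not called (limma adjusted p = 0.0516). Mmp9, the other gelatinase, was below the filter at 0.259 and 0.155 FPKM against 0.699 and 0.679. The MMP genes clustered on chromosome 9, which include the interstitial collagenases, stromelysins and matrilysin, reached no more than 0.0367 FPKM in any library, and 7 of the 10 were listed at 0 throughout.

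Of the 6 membrane-type MMPs, 4 were tested. Mmp14 (chr14:54431612-54445364, +), the collagenase of the cell surface that activates pro-MMP2, was the most abundant MMP of laminin-negative cells. It was at 236 and 232 FPKM there and at 170.4 and 171 in laminin-positive cells, a modest fall without overlap (log2 difference -0.45, limma adjusted p = 2.54e-04). Mmp14 and Mmp2 thus differed in opposite directions: Mmp14 was the higher of the pair in laminin-negative cells and Mmp2 in laminin-positive cells. Mmp17, which is held in the membrane by a GPI anchor, rose from 5.51 and 4.87 FPKM to 18.7 and 17.4, 3.49-fold (log2 difference 1.63, limma adjusted p = 1.86e-07). Mmp16, a transmembrane relative of Mmp14, was at 5.84 and 4.84 FPKM against 6.43 and 7.76. Its call (log2 difference 0.35, limma adjusted p = 0.0323) was lost without laminin-negative library 2 (adjusted p = 0.176) or laminin-positive library 2 (0.266), and also with no filter (0.104), under quantile normalization (0.0682) or without variance shared across genes (0.26). Mmp15 was at 1.52 and 1.37 FPKM against 1.03 and 1.11 and was not called (limma adjusted p = 0.125).

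Of the 9 ADAMs with protease activity outside the germ line, 6 were tested, and 3 fell, 1 rose and 2 were not called. Adam12, a shedding enzyme of mesenchymal cells first known from fusing muscle cells, had the widest log2 difference of any member. It lies at chr7:133883199-134232146 (-) and was at 72.5 and 68.8 FPKM in laminin-negative cells and 3.23 and 3.06 in laminin-positive cells, 22.4-fold lower without overlap (log2 difference -4.11, SE 0.08, limma adjusted p = 7.79e-11). Adam19, a close relative (both are known as meltrins), went the same way with a smaller step, from 23.6 and 18.7 FPKM to 10.3 and 10.2 (log2 difference -0.97, limma adjusted p = 2.72e-05).

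Adam17, which releases tumour necrosis factor and several growth factors of the EGF family, fell from 21.2 and 19.6 FPKM to 13.8 and 15.0 (log2 difference -0.47, limma adjusted p = 0.00104). It shares exon sequence with Iah1 on the opposite strand, at 30.3 in both laminin-negative libraries against 23.8 and 21.3. Adam10, the enzyme that makes the first regulated cut in Notch receptors, was at 27.3 and 27.4 FPKM against 25.6 and 30.3, with the laminin-negative values inside the laminin-positive range and no call (limma adjusted p = 0.845). Adam9, a widely made shedding enzyme, was the one that rose, from 21.6 and 21.8 FPKM to 32.8 and 35.9 (1.59-fold, limma adjusted p = 6.07e-05). Adam15, an ADAM with an integrin-binding RGD motif in the human protein, was at 38.8 and 39.1 FPKM against 44.4 and 42.2 and was not called (limma adjusted p = 0.114). Adam8 and Adam33 were below the filter, Adam8 at 0.850 and 0.897 FPKM against 0.377 and 0.513, and Adam33 at 0.620 and 0.739 against 0.174 and 0.234.

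Adam11, Adam22 and Adam23 lack the catalytic residues of a protease and are known as neuronal receptors for secreted LGI proteins. Adam23 (chr1:63445891-63596276, +) was at 38.0 and 36.9 FPKM in laminin-negative cells and 3.27 and 3.19 in laminin-positive cells. That is 11.6-fold lower without overlap (log2 difference -3.18, SE 0.09, limma adjusted p = 5.37e-10). Adam11 went the opposite way at low levels, from 0.318 and 0.461 FPKM to 2.48 and 2.81 (log2 difference 1.39, limma adjusted p = 5.6e-06). Adam22 reached 1.08 FPKM at most and was not tested.

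The 21 ADAMs known from male germ cells, such as the fertilin subunits that act in sperm, were nearly silent, with 12 listed at 0 in every library. Adam5 was the only one tested, at 0.900 and 1.45 FPKM against 1.42 and 1.83. Its groups overlapped and it was not called (limma adjusted p = 0.152), though it was without laminin-negative library 2 (adjusted p = 0.0369). The other 20 reached at most 0.583 FPKM.

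Among the ADAMTSs, the 7 hyalectanases cut the large chondroitin sulfate proteoglycans such as versican and aggrecan. Of these 6 were tested, and 4 rose, 1 fell and 1 was not called. Adamts8 (chr9:30942562-30963838, +) was at 0.284 and 0.321 FPKM in laminin-negative cells and 10.2 and 9.94 in laminin-positive cells. Both laminin-positive libraries were far above both others, at a 33.3-fold ratio of the means (log2 difference 3.09, SE 0.11, limma adjusted p = 3.44e-09). Adamts4 (chr1:171250421-171260637, +), known as aggrecanase-1, was at 7.05 and 5.86 FPKM against 26.7 and 23.6. That is 3.90-fold higher without overlap (log2 difference 1.81, SE 0.11, limma adjusted p = 1.45e-07). Adamts15 rose 2.12-fold, from 9.14 and 8.23 FPKM to 17.7 and 19.1 (limma adjusted p = 5.87e-06).

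Adamts5, the other main aggrecanase, was the hyalectanase with the highest level in both populations and the one that fell. It was at 215 and 201 FPKM in laminin-negative cells and 138 and 146 in laminin-positive cells, without overlap (log2 difference -0.55, limma adjusted p = 1.05e-04). Adamts4 and Adamts5, which cut the same site in aggrecan, thus differed in opposite directions, and Adamts5 remained the more abundant of the pair in each library. Adamts1, known for its part in ovulation and in cutting versican, was at 114 and 112 FPKM against 133 and 127. Its small rise (log2 difference 0.20, adjusted p of the limma fit 0.0308) was lost without laminin-negative library 2 (adjusted p = 0.0684), laminin-positive library 1 (0.222) or laminin-positive library 2 (0.0891), without the intensity trend (0.0811) or without variance shared across genes (0.0881). Adamts9, the conserved family member that also acts at cilia, was at 50.4 and 46.1 FPKM against 51.9 and 55.2 and was not called (limma adjusted p = 0.139). Adamts20 stayed under 1 FPKM, at 0.605 and 0.444 against 0.379 and 0.324.

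Both tested procollagen N-propeptidases, which trim the amino end of fibrillar procollagens, rose. Adamts2 went from 75.8 and 67.7 FPKM to 106 and 109.7 (log2 difference 0.59, limma adjusted p = 9.32e-05). Adamts14 went from 13.4 and 12.6 FPKM to 28.7 and 28.5, 2.197-fold (log2 difference 1.08, limma adjusted p = 1.09e-06). The other family member, Adamts3, was below the filter at 0.327 and 0.188 FPKM against 0.812 and 0.880.

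The other ADAMTSs were all called where tested, 5 higher and 3 lower. Adamts19, a family member without a well-known substrate, lies at chr18:58836667-59054060 (+) and was at 8.84 and 6.27 FPKM in laminin-negative cells and 0.609 and 0.546 in laminin-positive cells. The laminin-negative libraries differ from each other here but both lie far above the rest, at 13.1-fold (log2 difference -2.42, SE 0.15, limma adjusted p = 2.11e-07). Adamts17, whose human gene is mutated in a form of Weill-Marchesani syndrome, rose from 1.49 and 1.22 FPKM to 4.95 and 4.90, 3.64-fold (log2 difference 1.34, limma adjusted p = 3.74e-06). Adamts16 was at 0.0492 and 0.0117 FPKM against 1.48 and 1.88 (log2 difference 1.38, limma adjusted p = 9.65e-06), and no ratio is given because the laminin-negative values amount to very few fragments.

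The fibrillin-associated pair Adamts6 and Adamts10 was higher, Adamts6 at 4.50 and 3.92 FPKM against 7.68 and 7.23, and Adamts10 at 55.9 and 46.1 against 66.6 and 62.5. The Adamts10 call (log2 difference 0.34, adjusted p of the limma fit 0.0112) was lost without laminin-negative library 2 (adjusted p = 0.0665), with no filter (0.0528) or without variance shared across genes (0.231). Adamts7 and Adamts12 are close relatives that cut cartilage oligomeric matrix protein, and they differed in opposite directions. Adamts7 rose from 32.8 and 30.4 FPKM to 45.8 and 45.3 (log2 difference 0.51, limma adjusted p = 2.12e-04). Adamts12 was at 24.8 and 22.0 FPKM against 18.0 and 19.8, and its call (limma adjusted p = 0.0206) was lost without laminin-negative library 1 (adjusted p = 0.108) or laminin-positive library 1 (0.154), with equal FPKM sums (0.168), with no filter (0.054) or without variance shared across genes (0.198). Adamts13, the protease that trims von Willebrand factor, fell from 5.23 and 5.81 FPKM to 3.30 and 3.73 (log2 difference -0.53, limma adjusted p = 0.00229).

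ADAMTS-like proteins have the matrix-binding domains of the ADAMTSs without the protease, and several bind fibrillin microfibrils. Adamtsl2 (chr2:27079379-27108981, +), mutated in geleophysic dysplasia, was at 6.39 and 6.47 FPKM in laminin-negative cells and 61.5 and 57.6 in laminin-positive cells. That is 9.26-fold higher without overlap (log2 difference 3.03, SE 0.08, limma adjusted p = 4.81e-10). The window upstream of Adamtsl2, printed above, holds the TATA box, as do 12.4% of all windows. Adamtsl5 (chr10:80339110-80348412, -), a microfibril-binding relative, was at 8.08 and 7.79 FPKM against 0.681 and 0.244, or 17.2-fold lower (log2 difference -2.63, SE 0.15, limma adjusted p = 1.11e-07). The ratio is 32.5-fold without laminin-positive library 1 and 11.7-fold without laminin-positive library 2. Its window holds the NR5A1 core, as do 4.08% of all windows, and a link between the match and the level was not tested. The table gives Adamtsl5 one locus with 47 rows in all. Whether reads of Adamtsl5 were shared with other genes of that locus is not shown.

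Adamtsl1, called punctin, rose from 0.730 and 0.659 FPKM to 4.07 and 3.999, 5.81-fold (log2 difference 1.57, limma adjusted p = 9.69e-07). Adamtsl4, needed for the fibres that hold the lens, fell from 26.6 and 24.4 FPKM to 17.8 and 18.5 (log2 difference -0.47, limma adjusted p = 7.46e-04). Adamtsl3 was below the filter, at 0.367 and 0.407 FPKM against 0.0181 and 0.0335.

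Summed per family, the TIMPs stood at 434 and 448 FPKM in laminin-negative libraries and 549.8 and 604 in laminin-positive ones. MMPs summed to 407 and 396 FPKM against 538 and 529.6, so the ratio of the TIMP sum to the MMP sum was 1.07 and 1.13 against 1.02 and 1.14, overlapping between the populations. ADAMs summed to 247 and 237 FPKM against 139.9 and 147. ADAMTSs summed to 620.3 and 570.2 FPKM against 663 and 667. Thus the ADAM sum was lower in both laminin-positive libraries and the other sums were higher, as a description with no test.

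The make-up of these sums differed more than the sums did. Timp3 supplied 8.53% of the TIMP sum in laminin-negative cells and 41.6% in laminin-positive cells (means of 2 libraries). Timp2 supplied 77.7% and 53.4%, and Timp1 13.6% and 4.98%. Mmp14 made up 58.2% of the MMP sum in laminin-negative cells and 32.0% in laminin-positive cells, whereas Mmp2 went from 25.2% to 40.5%. Adam12 and Adam23 together were a large part of the ADAM sum of laminin-negative cells, at 29.1% and 15.5%, and a small part in laminin-positive cells, at 2.195% and 2.25%. Adam15 then led, going from 16.1% to 30.2%, although its own level was not called. Adamts5 led the ADAMTSs with 35.0% in laminin-negative cells and held 21.4% in laminin-positive cells. In the ADAMTS-like sum, Adamtsl4 led in laminin-negative cells with 62.3% against 22.1%, and Adamtsl2 in laminin-positive cells with 72.4% against 15.7%.

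**Figure D3:**
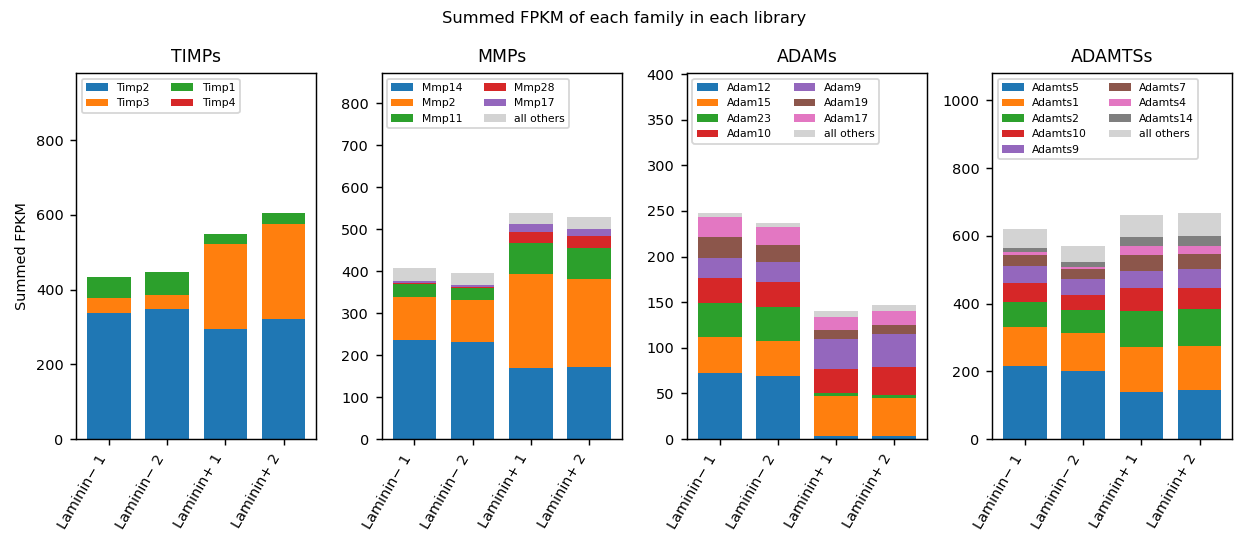
Summed FPKM of the TIMPs, MMPs, ADAMs and ADAMTSs in each of the 4 libraries, as bars from 0 stacked by member, with small contributors joined as all others. The libraries of a population look alike; Timp3 and Mmp2 take larger parts in laminin-positive cells, and Adam12 and Adam23 are nearly gone from the ADAM bars.

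Several members are neighbours in the genome, and neighbours did not always move together. Adamts15 and Adamts8 lie 20.1 kb apart on chromosome 9, and both rose. Adamts1 and Adamts5 lie 53.1 kb apart on chromosome 16 and were called in opposite directions, although the small Adamts1 rise lost its call under the alternatives given above. Adamts13 and Adamtsl2, 69.8 kb apart on chromosome 2, also differed in opposite directions. Without variance shared across genes, Adamts5 and Adamts13 lost their calls too. Adam9 on chromosome 8 rose. Its neighbour Adam32, 0.8 kb away and one of the germ cell ADAMs, was below the filter and not tested. Adam32 was at 0.0744 and 0.0139 FPKM against 0.114 and 0.166, so this pair does not show neighbours that differ.

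Genes that activate these proteases or clear them were mixed. Among the partner and substrate genes below, Pcsk6, Plaur, Cdh2, Acan, Cd44 and Tll1 reached 1 FPKM in 1 population only, so they could enter the test only through the population where they are high, and the counts of their lists include them. Of 14 tested activators and members of the plasmin system, 4 were higher, 5 lower and 5 not called, with a median log2 difference of -0.10 against 0.01 over all tested rows. Beside this count and those of the lists below, 52.9% of all tested rows were called, 26.6% higher and 26.3% lower. Plau, the urokinase that turns plasminogen into plasmin, fell from 17.7 and 19.9 FPKM to 2.64 and 2.19. Cd44, a surface receptor that docks Mmp14 and Mmp9, fell from 5.52 and 5.22 FPKM to 0.540 and 0.668. Thrombospondin 1 (Thbs1), which binds MMPs and helps their uptake, rose from 4.46 and 4.10 FPKM to 17.6 and 12.7. Lrp1, the receptor through which cells take up MMPs, TIMPs and ADAMTSs, was at 172 and 128 FPKM against 227 and 212 and was called higher.

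Of 7 tested partners that carry ADAM10 or ADAM17 to the cell surface, 2 were higher, 4 lower and 1 not called (median log2 difference -0.38). The iRhoms, which escort ADAM17, were the higher ones: Rhbdf1 at 59.6 and 56.7 FPKM against 105 and 100.1, and Rhbdf2 at 1.36 and 1.52 against 2.21 and 2.44. Adam17 itself fell. The tetraspanins Tspan5 and Tspan14, which escort ADAM10, fell, Tspan5 from 14.6 and 15.0 FPKM to 4.95 and 4.14 and Tspan14 from 70.6 and 65.9 to 27.8 and 28.3, while Adam10 was not called.

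The 4 tested genes among the astacin proteases, procollagen enhancers and related proteins were lower (median log2 difference -1.53), Tll1 among them, at 2.07 and 1.78 FPKM against 0.0196 and 0.0240. They include Pcolce, which speeds the removal of the other end of procollagen, at 527 and 505 FPKM against 184 and 170.2. Papln, which resembles the ADAMTSs outside the protease domain, was at 22.8 and 21.6 FPKM against 4.26 and 3.71.

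Among 14 tested matrix substrates, 6 were higher and 8 lower, with a median log2 difference of -0.30. Elastin (Eln), a substrate of several MMPs, rose from 285 and 216 FPKM to 2785 and 2730.1. Aggrecan (Acan), the namesake substrate of Adamts4 and Adamts5, was low in both populations, at 0.110 and 0.0925 FPKM against 1.42 and 1.36, and was called higher. Decorin (Dcn) fell from 1783 and 2205 FPKM to 193 and 213. Type III collagen (Col3a1) fell from 1931 and 1811 FPKM to 613 and 624, while the propeptidases Adamts2 and Adamts14 rose.

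Of 15 tested membrane proteins that ADAMs are known to release, 8 were higher, 6 lower and 1 not called (median log2 difference 0.27). Fractalkine (Cx3cl1), shed by ADAM10 and ADAM17, rose from 27.9 and 28.6 FPKM to 169 and 173. The receptor Notch3, also a pericyte marker, rose from 8.57 and 7.78 FPKM to 41.7 and 39.2. Dlk1, shed by ADAM17, fell from 860 and 833 FPKM to 12.8 and 9.36. The adhesion molecule Vcam1 fell from 255 and 280.3 FPKM to 14.3 and 15.1.

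**Figure D4:**
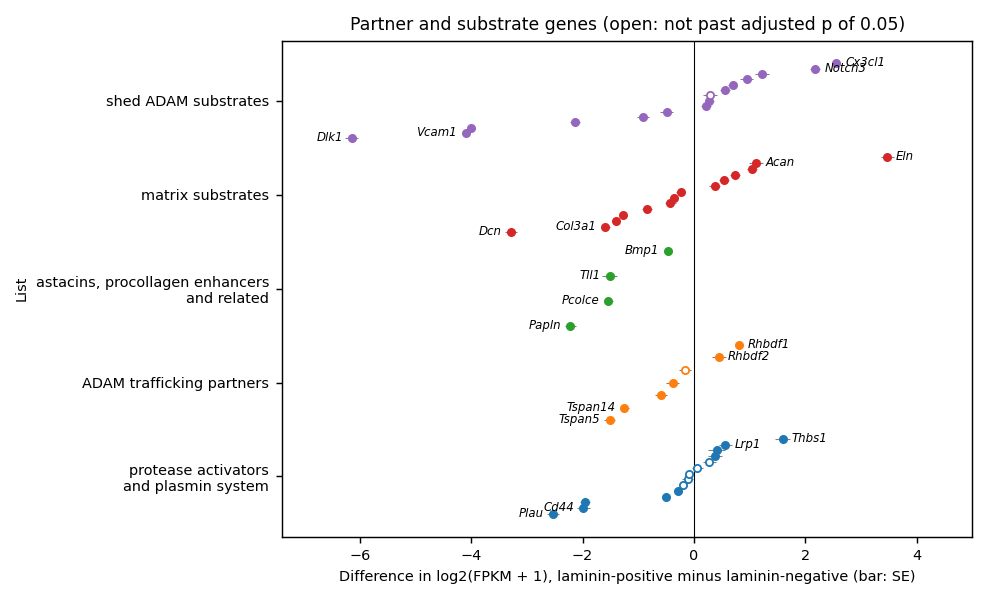
Difference in log2(FPKM + 1), laminin-positive minus laminin-negative, of each tested partner and substrate gene by list, with bars of 1 standard error; filled points passed an adjusted p of 0.05 and open points did not. Every list but that of the astacins and procollagen enhancers has called genes on both sides of 0, with Dlk1 and Eln at the ends.

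Among the 23 members below the filter with a value above 0, the highest was Adam22 at 1.08 FPKM. When every row with a value above 0 was tested, 7 of them were called, beside 36.2% of all 18255 rows in that test. Timp4, Adam33, Adamtsl3 and Adam8 were lower in laminin-positive cells, and Mmp25, Mmp9 and Adamts3 were higher. Mmp25, the other GPI-anchored MMP, was at 0.0267 and 0.157 FPKM against 0.341 and 0.418. No ratio is given for these 7 genes, whose values are under 1 FPKM in every library.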

How the data were processed

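The authors deposited 1 table of FPKM per gene locus for 4 libraries, per the file headers. Per the submitters' processing notes TopHat2 2.1.1 and Cufflinks 2.2.1 were used, but not for which step. Whether reads were counted by strand, how libraries were scaled, and the build and annotation used are not given in the sources. Per the labels' protocols, total RNA was extracted from sorted cells with a micro kit and libraries were made with a directional kit. Of 21235 loci compared with GENCODE M21 on GRCm38, 99.6% overlapped the gene of the same symbol, and that annotation gives the coordinates.

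Rows with at least 1 FPKM in at least 2 libraries were tested (12348) with limma 3.58.1 in R 4.3.3 on log2(FPKM + 1), two-sided, with empirical Bayes and an intensity trend (2 residual degrees of freedom, to which the prior added 8.21 at the median), no replicate block, Benjamini-Hochberg adjustment over all tested rows and a threshold of 0.05. The fit was tested on simulated data. Depth was estimated from the steps between low values and entered no test. Alternatives were other pseudocounts, no filter, other scalings, other variance models, a replicate block and leaving out each library.

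The members and lists were chosen with earlier results of these data known. Values are given for the TIMPs, Reck, Mmp2, Mmp14, Adam10, Adam17 and Adamts1, the 10 largest called differences in each direction and members over 50 FPKM; a standard error is given for the 5 largest in each direction; other members with values were named after they were seen, to account for each family. Of each partner list, the 2 largest called differences in each direction are named. A planned description of protein motifs was not made, since no protein sequences were used here.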

Additional observations from a re-analysis of the deposited data

How the results depend on the processing

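The calls rest on 2 libraries per population and on variance shared across genes. Over 13 alternatives no called member reversed its direction, and 22 of the 34 called members kept their call in each of them. Without variance shared across genes, 1346 rows were called higher and 1211 lower in place of 3288 and 3245. Members were then 16 higher and 7 lower in place of 21 and 13. Partner genes were 9 higher and 22 lower in place of 20 and 27. As 2 residual degrees of freedom remain, 12 called members lost their call, and 1 member without a call, Mmp23, gained one. The members that lost it were Adam17, Adam19, Adamts1, Adamts2, Adamts5, Adamts6, Adamts7, Adamts10, Adamts12, Adamts13, Adamtsl4 and Mmp16. Scaling the libraries to equal FPKM sums without Rn45s moved the median log2 difference of all tested rows to 0.12 and the calls to 4273 higher and 2371 lower. Mean sums then became 423.2 FPKM for TIMPs in laminin-negative cells, 385.5 and 557.4 for MMPs in laminin-negative and laminin-positive cells, 232.7 and 149.9 for ADAMs, and 694.1 for ADAMTSs in laminin-positive cells. Only mean sums that moved by more than the standard deviation between their libraries are listed. The ratio of the TIMP sum to the MMP sum in a library cannot change with such scaling. Adam15, Adamts9 and Mmp23 were then called higher (limma adjusted p = 0.0138, 0.0212 and 0.0111) and Adamts12 lost its call (adjusted p = 0.168). With the replicate number as a block, 21 members were called higher and 13 lower, the same numbers as without it, and no call of a member changed. Same-numbered libraries did not deviate together (correlation of deviations 0.008). That value cannot show whether they came from the same mice or the same sort, which the labels do not say.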
